A study of Mus musculus with 2 samples.

Results

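Early inhibitory interneurons of the mouse cerebellum carrying Pax2, Slc6a5 and Lhx5 transcripts were examined in single-cell RNA sequencing data from postnatal day 1. They were chosen by their raw counts of unique molecular identifiers (UMIs): a barcode was taken when it held at least 500 detected genes, at most 10% mitochondrial UMIs, at least 1 UMI each of Pax2, Slc6a5 and Lhx5, no UMI of Sst, at most 2 of Calb1 and at most 1 of Car8. Of 16547 barcodes that passed the first 2 limits, 880 met the whole rule, 522 from the mutant library and 358 from the control library. The mutant library came from Cxcr4+/1013 mice, heterozygous for an allele that shortens the tail of the chemokine receptor CXCR4, and the control library from Cxcr4+/+ mice, both given as strain B6.129S2-Cxcr4tm1.1Bala and as P1. Lobules III-IV were dissected and dissociated with papain, and each genotype gave 1 droplet library with 3' chemistry. The extraction protocol of both samples names the mutant Cxcr4+/-, against Cxcr4+/1013 in the genotype label, which was used here. The allele acts in every tissue of these mice, the controls carry no 1013 allele, and the labels do not say how many animals were pooled for a library.

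Inhibitory interneurons of the cerebellum arise from Ptf1a-expressing progenitors of the ventricular zone, switch on Pax2 around their last division, and migrate through the white matter into the granular and molecular layers. Their first-born members settle in the cerebellar nuclei and the granular layer and many of them release glycine as well as GABA, whereas later-born ones become the basket and stellate cells of the molecular layer. Slc6a5 encodes the transporter that returns glycine to the terminals of glycinergic neurons, and Lhx5 encodes a LIM homeodomain factor used early in cerebellar GABAergic neurons.

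With 1 library per genotype there was no replicate. Values of both libraries are therefore set side by side without a test, and 95% intervals cover counting error only, not the spread between animals, dissections or preparations. Intervals of summed UMIs treat each UMI as independent, so they also leave out the spread between cells. The mutant library held 130429500 UMIs in 9551 deposited barcodes and the control library 120003656 UMIs in 9586. The interneurons held a median of 12707.5 UMIs and 4319.5 genes in the mutant library, against 11495 UMIs and 4104 genes in the control library, and a median of 2.46% mitochondrial UMIs in mutant and 2.92% in control cells. The libraries shared 25 barcode sequences, none of them among the interneurons. Scrublet, which scores barcodes for likeness to simulated doublets, placed 51 mutant interneurons (9.77%) and 50 control interneurons (14.0%) among the barcodes marked as likely doublets. Of all barcodes that passed the limits, 7.64% of mutant and 7.67% of control barcodes were marked, shares set by the planned rate. Interneurons were thus marked at a larger share in both libraries, and more so in control. Xist and Y-linked transcripts assigned 199 mutant interneurons to females, 242 to males and 81 to neither, against 180, 118 and 60 in the control library. The interneurons were thus 38.1% female in the mutant and 50.3% female in the control library, while all barcodes that passed the limits were 42.1% and 45.9% female.

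The gene starts of Pax2, Skor1 and Slc32a1 are shown. These genes gave the cells their lineage, their leading ratio over all other barcodes outside the rule genes, and their transmitter. Each sequence is the 250 bases before a RefSeq transcript start in GRCm38.p6, the assembly that mm10 denotes, and ends 293 bases (Pax2), 0 bases (Skor1) or 9 bases (Slc32a1) before the start of its GENCODE gene. The Pax2 window (ENSMUSG00000004231) is chr19:44755502-44755751 on the plus strand, the Skor1 window (ENSMUSG00000022245) is chr9:63148962-63149211 on the minus strand, and the Slc32a1 window (ENSMUSG00000037771) is chr2:158610508-158610757 on the plus strand. Capitals mark matches on either strand to CAGCTG, an E-box core that reads alike on both strands, and to TGGGAA, the core bound by RBPJ, the partner of Ptf1a in the PTF1 complex.
Pax2: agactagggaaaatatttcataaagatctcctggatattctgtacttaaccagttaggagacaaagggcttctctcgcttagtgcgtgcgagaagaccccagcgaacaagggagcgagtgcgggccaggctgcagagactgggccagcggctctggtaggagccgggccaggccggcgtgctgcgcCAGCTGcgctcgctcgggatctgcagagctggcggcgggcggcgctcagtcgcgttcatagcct
Skor1: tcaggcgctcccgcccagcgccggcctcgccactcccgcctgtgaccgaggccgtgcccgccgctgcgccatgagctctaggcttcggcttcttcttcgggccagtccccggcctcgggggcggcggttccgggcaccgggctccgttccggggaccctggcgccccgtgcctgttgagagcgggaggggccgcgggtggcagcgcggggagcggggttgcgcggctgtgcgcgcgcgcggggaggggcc
Slc32a1: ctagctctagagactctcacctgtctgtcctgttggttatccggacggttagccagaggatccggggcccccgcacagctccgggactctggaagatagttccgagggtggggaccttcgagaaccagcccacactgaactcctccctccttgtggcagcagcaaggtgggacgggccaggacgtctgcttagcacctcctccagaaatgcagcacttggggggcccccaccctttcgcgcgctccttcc
The Pax2 window held 1 E-box core and no RBPJ core, and the other windows held neither. Among 27025 windows of the same length, 12.8% held CAGCTG and 21.5% held TGGGAA. The windows were 60.8% GC for Pax2, 78.8% for Skor1 and 62.4% for Slc32a1, against a mean of 53.0% over all windows.

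The interneurons made up a larger share of the mutant library. They were 6.37% of mutant barcodes (exact binomial 95% interval 5.85% to 6.92%) and 4.29% of control barcodes (3.86% to 4.74%), a ratio of 1.49 (1.30 to 1.71). Barcodes with Pax2 and Slc6a5 that met the same upper limits but held no Lhx5 UMI were 2.47% of mutant and 1.74% of control barcodes, a ratio of 1.42 (1.14 to 1.77). Pax2 barcodes with at least 2 Sst UMIs within the same limits on Calb1 and Car8, which stand for the Sst inhibitory interneurons, were 5.59% and 4.49%, a ratio of 1.25 (1.08 to 1.43). Barcodes with at least 3 Calb1 and 2 Car8 UMIs and no Pax2, the Purkinje set, were 5.54% of mutant and 6.29% of control barcodes, a ratio of 0.882 (0.776 to 1.001). All 3 Pax2 sets therefore held more of the mutant library, and the Purkinje set did not.

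The size of this difference depended on what the share was taken of. Among barcodes with both Gad1 and Gad2, the interneurons were 19.3% in the mutant and 14.9% in the control library, a ratio of 1.29 (1.11 to 1.51). Among barcodes with Pax2 that were not marked as doublets they were 27.2% and 23.8%, a ratio of 1.14 (0.986 to 1.32) whose interval includes 1. When each barcode was thinned to 4000 UMIs, the rule took 2.85% of mutant and 2.23% of control barcodes, a ratio of 1.28 (1.03 to 1.59), with 960 mutant and 1760 control barcodes left out as shallower. Female cells gave a ratio of 1.23 (1.0001 to 1.51) and male cells 1.66 (1.33 to 2.09), and the difference between the sexes was not tested. The part of depth and of the number of animals of each sex in the library-wide ratio was not tested.

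**Figure D1:**
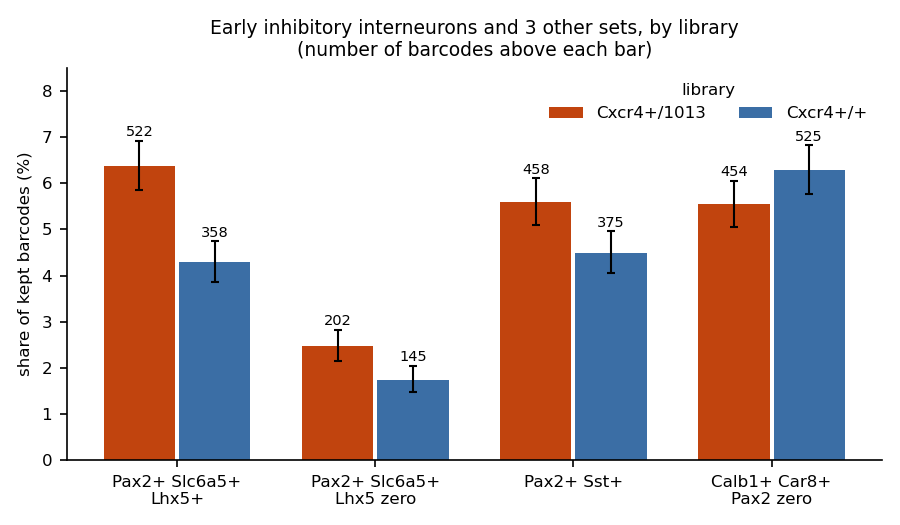
Bars give the share of barcodes in each library (%) that belongs to the Pax2 Slc6a5 Lhx5 interneurons and to 3 other sets, with Cxcr4+/1013 left of Cxcr4+/+, exact 95% intervals for counting error and the number of barcodes above each bar. The 522 mutant and 358 control interneurons are 6.37% and 4.29%, and the Purkinje set is the one set with the lower share in the mutant library.

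The values that chose the cells were as follows and are given as a description. An interneuron held a median of 9 Pax2 UMIs in the mutant and 8 in the control library, 3 of Slc6a5 in both and 2 of Lhx5 in both. Just inside the rule, 184 mutant and 121 control interneurons held a single Lhx5 UMI, and just outside it 202 mutant and 145 control barcodes held none. Those 1-UMI cells had 657.6 and 604.3 Gad1 counts per 1000000 UMIs, and the barcodes with none had 733.4 and 676.1. A further 203 mutant and 132 control barcodes failed only for want of Slc6a5, and 12 and 4 only for want of Pax2. On the upper limits, 88 mutant and 60 control barcodes failed with 1 Sst UMI, 20 and 17 with 2 Car8 UMIs, and 5 and 2 with 3 Calb1 UMIs. The boundary on Lhx5 and Slc6a5 thus runs through many barcodes, whereas those on Pax2 and Calb1 touch few.

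Gad1 and Slc32a1, which the rule did not use, matched the GABAergic part of the label. The glycinergic part rests on Slc6a5, which the rule required, and no other gene given here is particular to glycine. Levels are UMIs summed over the cells of a library and scaled to 1000000 UMIs of their own total (CPM), so they compare libraries and sets for 1 gene and do not rank genes. Gad1, which makes GABA, reached 569.0 CPM in mutant and 474.1 CPM in control interneurons, and Slc32a1, the vesicular transporter that loads GABA and glycine, 159.9 and 165.2 CPM. Skor1, a transcriptional co-repressor of the SKI family, reached 165.6 and 170.1 CPM and was seen in 75.7% and 81.0% of cells. In the Purkinje set, at median depths of 36448.5 and 35103 UMIs, Skor1 reached 13.5 and 14.6 CPM and was seen in 16.3% and 22.3% of cells. Galr1, a receptor for the peptide galanin, was seen in 22.8% of mutant and 20.7% of control interneurons, against 0.220% and 1.14% of the Purkinje set. Its ligand Gal was near 0, at 0.528 and 1.02 CPM.

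Markers of related cells were low. Inhba, an activin subunit, and Tll2, a tolloid-like protease, which accompany Sst in the other class of interneurons, reached 4.62 and 3.43 CPM in mutant and 1.64 and 4.09 CPM in control interneurons. In the Sst set Inhba reached 109.0 and 85.9 CPM and Tll2 125.7 and 131.2 CPM. Skor2, which marks Purkinje cells, was at 0.396 and 0.409 CPM. Gata3, Tal1 and Sox14, which mark GABAergic neurons of the midbrain, had no UMI in mutant interneurons, a limit of 0.396 CPM each, and 1.02, 1.43 and 1.23 CPM in control interneurons. None of the 12 Hox genes looked for had a UMI in either library, whereas En1 and En2, which mark the midbrain and the cerebellum, reached 133.3 and 116.1 CPM in mutant and 107.7 and 96.1 CPM in control interneurons. Foxp2, a forkhead factor of Purkinje cells, was seen at 157.2 and 130.2 CPM, against 1412 and 1371 CPM in the Purkinje set.

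**Figure D2:**
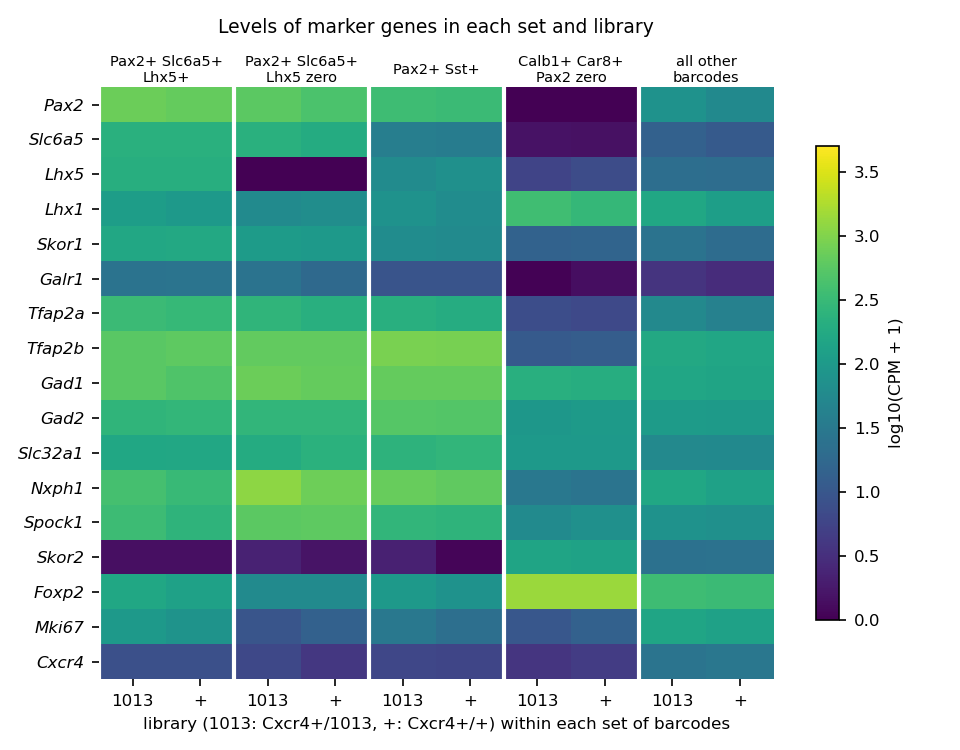
Colour gives the level of each gene, as log10(CPM + 1), in 5 sets of barcodes, with the Cxcr4+/1013 column left of the Cxcr4+/+ column in each set. Among these sets Skor1 is highest in the interneurons, at 165.6 and 170.1 CPM, and Skor2 is near 0 there. Pax2, Slc6a5 and Lhx5 were used to define the sets.

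Other genes set the interneurons apart from all other barcodes in both libraries. By the smaller of the log2 ratios of both libraries, Skor1 led, at a log2 ratio of 2.76 in the mutant and 3.11 in the control library. Megf11, an adhesion protein that spaces retinal interneurons, followed at 506.7 CPM in mutant interneurons and 80.4 CPM in the other mutant barcodes, and at 467.1 and 64.6 CPM in control. Tfap2a, an AP-2 factor of the Ptf1a lineage, was at 332.9 and 54.9 CPM in mutant and 304.4 and 41.4 CPM in control. Esrrg, an oestrogen-related nuclear receptor, was at 660.7 and 130.7 CPM in mutant and 566.1 and 105.1 CPM in control. Kit, the receptor tyrosine kinase later found on basket and stellate cells, was at 217.5 and 45.5 CPM in mutant and 191.9 and 40.3 CPM in control. Cacng3, an auxiliary subunit of AMPA receptors, was at 56.6 and 11.5 CPM in mutant and 61.7 and 9.22 CPM in control. Palmd, Adamts18, Crtac1, Tbc1d30, Nrxn3, Nxn, Nanos1, Zfp804a, Gpr22, Thsd4, Ypel2, Grik3, Cacna2d3 and Dscaml1 made up the rest of the 20 genes so chosen, with log2 ratios between 1.91 and 2.58 in the mutant and between 1.98 and 2.56 in the control library. Kit and Esrrg were not particular to cells with Lhx5. In the Lhx5-free barcodes Kit was at 382.7 and 333.6 CPM and Esrrg at 825.8 and 548.3 CPM. Skor1 was lower there than in the interneurons, at 104.9 CPM in mutant and 99.96 CPM in control. In barcodes that failed only for want of Slc6a5 it was at 175.7 and 172.6 CPM, so Skor1 was not particular to cells that met the whole rule.

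The genes that most exceeded their level in Lhx5-free barcodes were genes of cell division. Among the 12 genes highest in the interneurons over the Lhx5-free barcodes in both libraries, 11 act in division, and the twelfth was Robo3. Mki67, a marker of cycling cells, reached 101.1 CPM in mutant interneurons and 8.33 CPM in Lhx5-free mutant barcodes, a log2 ratio of 3.60, and 78.7 and 13.0 CPM in control, a log2 ratio of 2.60. Pbk, a mitotic kinase, gave log2 ratios of 3.92 in the mutant and 3.14 in the control library, and Cenpf, a kinetochore protein, 3.08 and 2.92. Hist1h1b, Nek2, Ccnb1, Cdc20, Racgap1, Tpx2, Ube2c and Cenpa were the others. Robo3, a guidance receptor of the Slit-Robo family, reached 9.37 CPM in mutant interneurons and 1.25 CPM in Lhx5-free mutant barcodes, and 9.81 and 1.77 CPM in control. Mki67 was seen in 18.2% of the interneurons of both libraries, against 3.96% of the mutant and 9.66% of the control Lhx5-free barcodes. Most interneurons were low in such genes. The 18 cell cycle genes listed summed to 6838 CPM in 60 mutant and 8057 CPM in 35 control cells of the Top2a Esco2 group described below. They summed to at most 778.6 and 804.9 CPM in the other unmarked groups, and to 2704 and 2069 CPM in interneurons marked as doublets.

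Of the 12 genes lowest in the interneurons against the Lhx5-free barcodes, 3 are given with their levels. Nxph1, a secreted ligand of neurexins, reached 402.7 CPM in mutant interneurons and 1191.5 CPM in Lhx5-free mutant barcodes, and 305.6 and 755.9 CPM in control. Cacna2d2, a calcium channel subunit, reached 53.3 and 197.4 CPM in mutant and 62.1 and 160.3 CPM in control. Inpp4b, a phosphoinositide phosphatase, reached 136.3 and 400.6 CPM in mutant and 128.2 and 302.3 CPM in control. Cdkl1, Sulf2, Lgi2, Cdh22, Scube1, Epha8, Pdxk, Atp2b3 and Etv4 completed the 12, with log2 ratios of interneurons over Lhx5-free barcodes from -1.75 to -1.15 in the mutant and from -1.99 to -1.16 in the control library. Prdm13, a repressor downstream of Ptf1a, ran the other way. It was at 42.0 CPM in mutant interneurons and 4.998 CPM in Lhx5-free mutant barcodes, and at 34.3 and 8.28 CPM in control.

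The Sst interneurons, another Pax2 class, differed from these cells in several genes in both libraries. Their median depth was higher, at 19376.5 UMIs in the mutant and 19165 in the control set, and the part of depth was not tested. Snhg11, a noncoding RNA of neurons, was at 21.2 CPM in mutant and 74.8 CPM in control interneurons with Slc6a5 and Lhx5, against 496.9 and 531.0 CPM in the Sst set. Gap43, a growth cone protein, was at 214.4 and 333.8 CPM, against 996.5 and 1032 CPM, and Pnoc, which encodes nociceptin, at 78.0 and 74.0 CPM, against 261.6 and 276.8 CPM. Each of these 3 genes was thus lower in the Slc6a5 and Lhx5 interneurons. Sox11, a factor of newborn neurons, was higher in them, at 2546 and 2304 CPM, against 677.0 and 613.8 CPM in the Sst set. Nfib, a nuclear factor I gene, was at 3942 and 3475 CPM, against 1086 and 962.0 CPM, and Dcc, a netrin receptor, at 4878 and 4193 CPM, against 1997 and 1518 CPM. These 6 genes were picked for this comparison after their values were seen.

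The interneurons were not uniform. Clustering of the 779 interneurons not marked as doublets gave 5 groups at the resolution used, and 4 to 8 at the resolutions tried. Each group held cells of both libraries and is named by a pair picked from its 15 leading genes, which define it and are no result. The Top2a Esco2 group held 60 mutant and 35 control cells, the Id2 Wscd1 group 161 and 127, the Igfbp5 Cdh23 group 65 and 48, the Nxph1 Cdh22 group 123 and 61, and the Myrip Grm8 group 62 and 37. Their sizes are not compared between genotypes, since leading genes such as Nxph1 differed between the libraries. Id2 was seen in 77.1% of the cells of its group, but genes of ciliated or glial cells stood above it by ratio, among them Ak7 and Cfap61, seen in 12.8% and 10.4% of its cells, and Apoe, seen in 17.4%. Ependymal markers summed to 77.2 CPM in mutant and 185.7 CPM in control cells of that group, and to at most 3.30 CPM in mutant and 8.30 CPM in control cells of the other 4. Over all interneurons 1 mutant and 2 control cells held at least 5 ependymal UMIs, so these sums are not a trait of the whole group.

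Across these groups Prdm13 ran opposite to Gad1 and Glra2, the glycine receptor subunit of immature neurons, which is given as a description since the groups were made from all genes. In the Top2a Esco2 group Mki67 reached 428 CPM in mutant and 442 CPM in control cells, and Prdm13 135 and 122 CPM. Prdm13 was at 51.4 and 48.9 CPM in the Id2 Wscd1 group and at or below 7.25 CPM in the other 3 groups in either library. Gad1 was lowest in the Top2a Esco2 group, at 189 CPM in mutant and 216 CPM in control cells, and reached 907 and 781 CPM in the Nxph1 Cdh22 group. Glra2 was at 29.5 and 10.4 CPM in the Top2a Esco2 group and at 466.7 and 452.4 CPM in the Myrip Grm8 group. Gad1 and Glra2 thus had their lowest and highest groups in common between the libraries.

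The rule genes themselves varied over the groups. Pax2 was highest in the Id2 Wscd1 group, at 1112 CPM in mutant and 961 CPM in control cells, and lowest in the Myrip Grm8 group, at 274 and 324 CPM. Lhx5 was highest in the Top2a Esco2 group, at 348 CPM in both libraries, and lowest in the Myrip Grm8 group, at 89.8 and 94.3 CPM. Dcc, the attractive netrin receptor, was at 10165 and 7492 CPM in the Top2a Esco2 group and 1160 and 826 CPM in the Myrip Grm8 group. Unc5c, a repulsive netrin receptor, ran the other way, at 2475 and 1547 CPM in the Top2a Esco2 group and 10086 and 6972 CPM in the Myrip Grm8 group. Spock1, a secreted proteoglycan, reached 1118 and 742 CPM in the Myrip Grm8 group and 24.2 and 1.74 CPM in the Top2a Esco2 group. The interneurons marked as doublets had Eomes, a factor of unipolar brush cells, at 85.6 CPM over both libraries and an astroglial marker sum of 986.5 CPM in mutant and 1227 CPM in control cells. In the unmarked groups that sum lay between 128.3 and 308.6 CPM in mutant and between 182.2 and 466.5 CPM in control cells. Other foreign markers also lay in unmarked groups. Ependymal markers summed to 4.54 and 6.48 CPM in the marked barcodes, below the Id2 Wscd1 group. Fibroblast markers summed to 118.7 and 359.5 CPM in the marked barcodes, but to 369.0 CPM in mutant and 6.23 CPM in control cells of the Igfbp5 Cdh23 group. Of all 522 mutant interneurons 2 held at least 5 fibroblast UMIs, so the mutant sums come mostly from at most 2 cells.

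**Figure D3:**
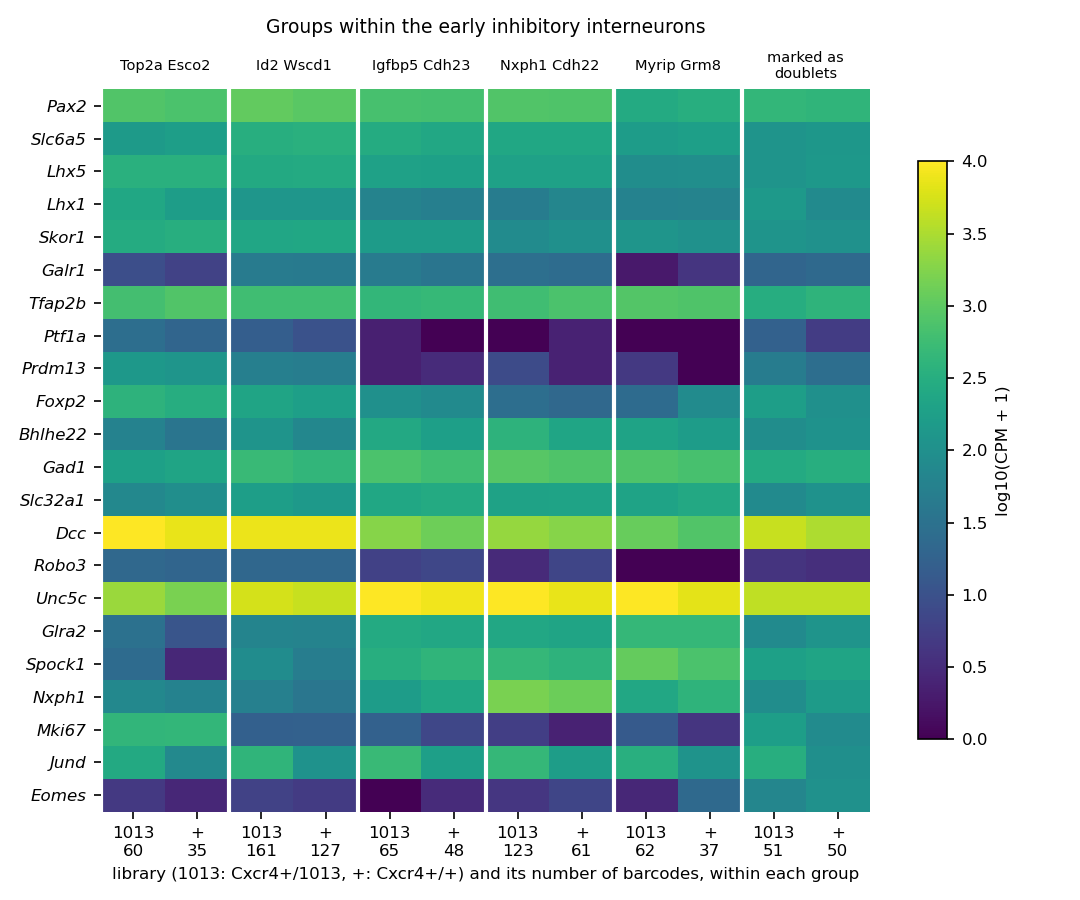
Colour gives the level of each gene, as log10(CPM + 1), in the 5 groups of unmarked interneurons and in those marked as doublets, with Cxcr4+/1013 left of Cxcr4+/+ and the number of barcodes under each column. Dcc and Prdm13 are highest in the Top2a Esco2 and Id2 Wscd1 groups, Unc5c and Gad1 in the other 3, and Jund is higher in the mutant column of every group.

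Few transcripts differed by 1.5-fold between mutant and control interneurons. A gene was counted when both libraries together held 50 or more of its UMIs. Of 11665 such genes, 346 were at least 1.5-fold higher in mutant cells (2.97% of genes) and 410 at least 1.5-fold lower (3.51%), 6.48% in all. In all other barcodes 436 of 19308 genes were higher (2.26%) and 1296 lower (6.71%). These barcodes held 118567039 mutant and 109872407 control UMIs, against 7578195 and 4891780 in the interneurons. The same limit of 50 UMIs thus reached genes at lower levels there, so these shares are not like for like. The median log2 ratio of the interneurons, mutant over control, was 0.01. The interval for counting error lay above 1 for 1666 genes (14.3%) and below 1 for 1461 (12.5%). Without the barcodes marked as doublets the counts were 374 higher (3.40%) and 324 lower (2.94%) of 11004 genes. Of these, 217 higher genes were shared with the first set, 62.7% of it and 58.0% of the second, and 195 lower genes, 47.6% and 60.2%.

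The genes named here have the ratio interval farthest from 1. Jund, an AP-1 factor, led those higher in mutant interneurons, at 382.4 CPM against 118.0 CPM in control interneurons, a log2 ratio of 1.70 (1.57 to 1.83). It was seen in 94.4% of mutant and 72.3% of control cells. Tmem158, a membrane protein induced by Ras, was at 59.4 and 18.8 CPM, and Hras itself at 33.8 and 12.1 CPM. H1fx, a linker histone, was at 67.8 and 25.1 CPM, Nsmce4a, a subunit of the SMC5/6 complex, at 114.8 and 46.8 CPM, and Taf10, a subunit of TFIID, at 33.8 and 12.3 CPM. Cited2, a CBP and p300 cofactor, was at 341.2 CPM in mutant and 177.6 CPM in control interneurons, a log2 ratio of 0.94 (0.83 to 1.05). Sft2d3, Yrdc, Pdxp, Frat2 and Clptm1l completed the 12, with log2 ratios from 1.15 to 2.01.

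These 12 differences were not confined to the interneurons. In all other barcodes the log2 ratio was 1.72 for Jund, 1.89 for Tmem158, 1.46 for Hras and 1.07 for Cited2, and the lowest of the 12 was 0.81 for Clptm1l. Within the interneurons, Jund was higher in the mutant library in each of the 5 groups and in the marked barcodes, at 271 and 74.8 CPM in the Top2a Esco2 group and at 335 and 113 CPM in the Myrip Grm8 group. Without the barcodes marked as doublets its log2 ratio was 1.66. What differs between the libraries besides genotype, such as the preparation, cannot be told apart from the genotype.

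The 11 genes named as lower in mutant interneurons were scarce and came from few cells. Snhg11, a long noncoding RNA of neurons, was at 21.2 CPM in mutant and 74.8 CPM in control interneurons, a log2 ratio of -1.82 (-2.09 to -1.55), with a UMI in 60 mutant and 59 control cells. This direction was not shared by the sexes, at -3.44 in female and 1.05 in male cells, and 1 mutant cell gave 32.9% of its mutant UMIs. In the Myrip Grm8 group it was at 53.0 and 345 CPM. Outside the interneurons its log2 ratio was -0.26. Kcnc2, a potassium channel of fast-spiking neurons, was at 8.71 and 22.3 CPM in 23 mutant and 24 control cells, and its log2 ratio in other barcodes was 0.02. Cntn5, a contactin, was at 23.4 and 48.7 CPM in 47 and 44 cells. Caly, Shisa9, Nwd2, AI593442 and Vwc2l completed the neuronal or unassigned ones, with log2 ratios from -1.90 to -1.31. The remaining 3 mark other cells, namely Gdf10 of Bergmann glia (5.94 and 17.2 CPM), Col4a2 of vessels and meninges (4.62 and 12.9 CPM) and Eomes of unipolar brush cells (14.5 and 31.5 CPM). Gdf10 and Col4a2 were also lower in all other mutant barcodes, at log2 ratios of -0.75 and -1.18, whereas Eomes was at 0.54 there. Nwd2, Caly, Cntn5, Col4a2 and Eomes also lay below a ratio of 1 in female and above it in male cells, and Cntn5 turned to 0.21 in cells with no Calb1 or Car8 UMI. A single mutant cell gave 35.3% of the mutant UMIs of Vwc2l, 38.7% of Nwd2 and 42.9% of Col4a2.

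**Figure D4:**
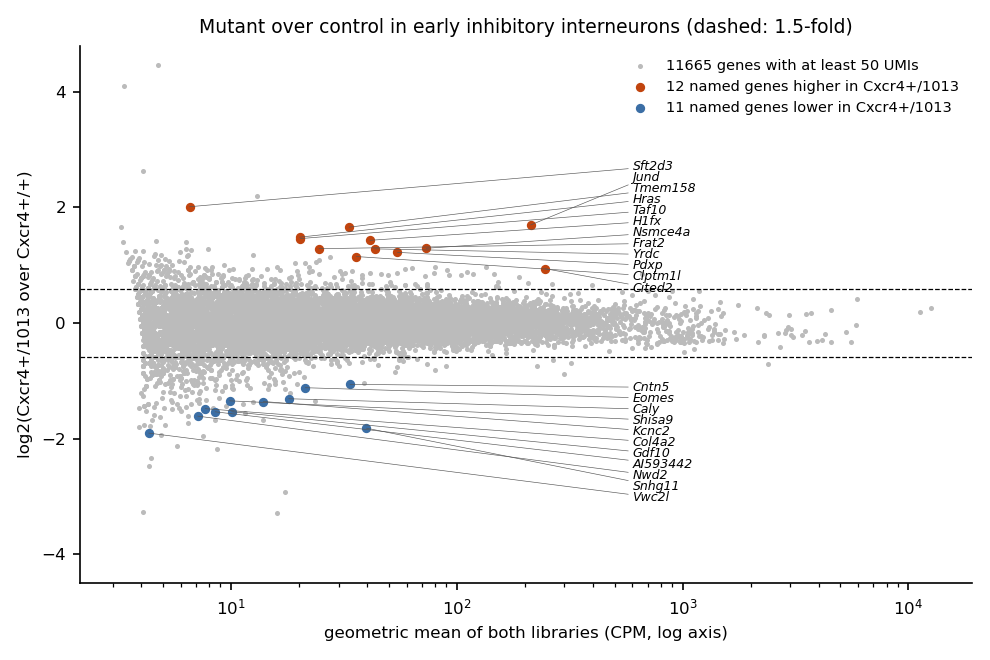
Each point is 1 of 11665 genes in the interneurons, with its level on a log axis (geometric mean of both libraries, CPM) against its log2 ratio, Cxcr4+/1013 over Cxcr4+/+, and dashed lines at 1.5-fold. Jund, at a log2 ratio of 1.70, stands clear of genes of like level, and the named lower genes lie at low levels, where the scatter is wide.

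Transcripts of other cells differed between the libraries as well. The 8 astroglial markers summed to 357.5 CPM in mutant and 542.3 CPM in control interneurons, with 6 of 7 counted genes below a ratio of 1, and the 3 ependymal markers to 19.8 and 52.3 CPM. Of the UMIs of Tmem212, an ependymal marker, 1 cell gave 94.9% in the mutant and another 93.9% in the control library. The 5 fibroblast markers summed to 61.2 and 98.1 CPM, with at least 5 such UMIs in 2 mutant and 5 control cells. Of 5 counted fibroblast genes 4 were at least 1.5-fold lower, against 3.51% of all genes. Among unmarked interneurons that direction turned round, with all 3 counted genes at least 1.5-fold higher, against 3.40% of all genes, and a median log2 ratio of 2.57. Col3a1, a fibrillar collagen, was at 18.1 CPM in mutant and 2.19 CPM in control unmarked interneurons. This turn was carried by at most the 2 mutant cells with 5 or more fibroblast UMIs. Haemoglobin transcripts summed to 64.5 and 7.97 CPM, with at least 5 UMIs in 1 cell of each library. In all other barcodes the astroglial sum was 1437 and 2283 CPM and the fibroblast sum 63.9 and 358.4 CPM. The part of these transcripts in the lower genes was not tested.

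Most factors of the lineage stayed within 1.5-fold. Of 24 factors listed, 17 had enough UMIs to be counted, 12 of them above a ratio of 1 and 5 below it, with a median log2 ratio of 0.13 against 0.01 for all genes and 0.22 for the same list in all other barcodes. At 1.5-fold, 3 of 17 were higher and none lower, against 2.97% and 3.51% of all genes. Bhlhe22, a basic helix-loop-helix factor, was at 184.3 CPM in mutant and 120.2 CPM in control interneurons, a log2 ratio of 0.62 (0.48 to 0.76), and its ratio in all other barcodes was 0.80. Ptf1a, which specifies the lineage, was at 10.3 and 5.93 CPM, a log2 ratio of 0.80. Without the barcodes marked as doublets that became 0.45 (-0.27 to 1.20), and with at least 2 UMIs of each rule gene -0.072. Without the marked barcodes 1 of 15 counted factors passed 1.5-fold upward, 9 were above and 6 below a ratio of 1, and the median was 0.08. Tfap2b, an AP-2 factor, was at 571.2 and 603.5 CPM, and Lhx1, the close relative of Lhx5, at 113.3 and 95.7 CPM. The 3 nuclear factor I genes differed little, with Nfib at 3942 and 3475 CPM, Nfia at 1554 and 1314 CPM and Nfix at 979 and 972 CPM.

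Genes that give cells of the region their position did not pass 1.5-fold. All 9 that could be counted of 22 stayed within 1.5-fold, 8 above a ratio of 1 and 1 below it, with a median log2 ratio of 0.27 against 0.22 in all other barcodes. Pbx3, a TALE homeodomain factor, was at 414.9 CPM in mutant and 288.4 CPM in control interneurons, and En1 at 133.3 and 107.7 CPM. Meis2 was at 15.7 and 16.8 CPM.

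Genes of GABA and glycine release stayed close in both libraries. All 10 were counted and none differed by 1.5-fold, with 4 above a ratio of 1, 6 below it and a median log2 ratio of -0.03. The largest log2 ratio was 0.38 (0.12 to 0.63) for Slc12a2, the NKCC1 importer that keeps chloride high in immature neurons, at 51.5 CPM in mutant and 39.7 CPM in control interneurons, and without the barcodes marked as doublets it passed 1.5-fold at 0.64. Gad1 gave 0.26 (0.19 to 0.34), while Gad2 was at 266.0 and 279.0 CPM. Slc12a5, the KCC2 exporter that lowers chloride as neurons mature, was at 6.99 CPM in mutant and 8.99 CPM in control interneurons, against 68.1 and 73.2 CPM in the Sst set. Slc6a5, which the rule used, was at 218.8 and 225.3 CPM.

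Receptors for inhibitory and excitatory transmitters are set beside all genes, of which 2.97% passed 1.5-fold upward and 3.51% downward. Without the marked barcodes those shares were 3.40% and 2.94%. The glutamate receptor genes passed it at a larger share than all genes, with 1 higher and 3 lower of 22. Of 18 counted GABA and glycine receptor genes out of 23, 12 were above and 6 below a ratio of 1, and at 1.5-fold none was higher and Gabrg3 was lower, at 17.4 CPM in mutant and 27.6 CPM in control interneurons. When the marked barcodes were left out, 3 of 17 were lower and none higher, Gabrg3 with Gabrb1, at a log2 ratio of -0.71, and Glra1, at -0.61. Glra2 was at 180.4 and 159.9 CPM. Of 22 counted glutamate receptor genes out of 24, 13 were above and 9 below a ratio of 1, and at 1.5-fold Grm2 was higher and Gria1, Grin2d and Grm5 lower. Gria1, an AMPA receptor subunit, was at 6.33 CPM in mutant and 48.0 CPM in control interneurons, but 1 control cell gave 25.5% of its control UMIs, and it was seen in 26 mutant and 45 control cells. Without the barcodes marked as doublets Gria1 was at 5.28 and 17.5 CPM, and of 22 glutamate receptor genes 3 were higher, namely Grm2, Grik5 and Grid1, and 2 lower, Gria1 and Grm5. Grm5, a metabotropic glutamate receptor, was at 33.5 and 51.3 CPM, and Grid1, a delta receptor, at 236 and 173 CPM.

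Guidance receptors differed little in both directions. Of 35 counted genes of migration and guidance out of 37, 17 were above and 18 below a ratio of 1, with a median log2 ratio of -0.00, and at 1.5-fold none was higher and Sema3a was lower, at 13.6 CPM in mutant and 23.1 CPM in control interneurons. With the marked barcodes left out, Unc5d, at 12.5 and 23.5 CPM, was the single one past 1.5-fold. Unc5c was at 6840 and 5148 CPM, a log2 ratio of 0.41 (0.39 to 0.43), beside 0.35 in all other barcodes. Dcc was at 4878 and 4193 CPM and Erbb4, a neuregulin receptor, at 1604 and 1419 CPM. Robo3 was at 9.37 and 9.81 CPM.

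Genes of newborn neurons included a pair that was at least 1.5-fold lower, as were 3.51% of all genes. Of 16 counted, 6 were above and 10 below a ratio of 1, and at 1.5-fold none was higher while Tubb2a, a neuronal tubulin, and Gap43, a growth cone protein, were lower. Tubb2a was at 252.4 CPM in mutant and 406.8 CPM in control interneurons, a log2 ratio of -0.69 (-0.78 to -0.60), and Gap43 at 214.4 and 333.8 CPM, a log2 ratio of -0.64 (-0.74 to -0.54). In all other barcodes these ratios were -0.32 and 0.04, and without the barcodes marked as doublets -0.63 and -0.53, the second within 1.5-fold. Dcx, which binds the microtubules of migrating neurons, was at 993 and 912 CPM and Sox11, a factor of newborn neurons, at 2546 and 2304 CPM. Of 33 genes of synapse and excitability, 21 were above and 12 below a ratio of 1, and at 1.5-fold Kcnc2 and Cacna2d1 were lower and none was higher, against 3.51% and 2.97% of all genes. Cacna2d1, a calcium channel subunit, was at 58.1 and 94.9 CPM, and at 10.7 and 18.3 CPM without the barcodes marked as doublets, where Scn1a, a sodium channel, was higher at 56.1 and 35.6 CPM.

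**Figure D5:**
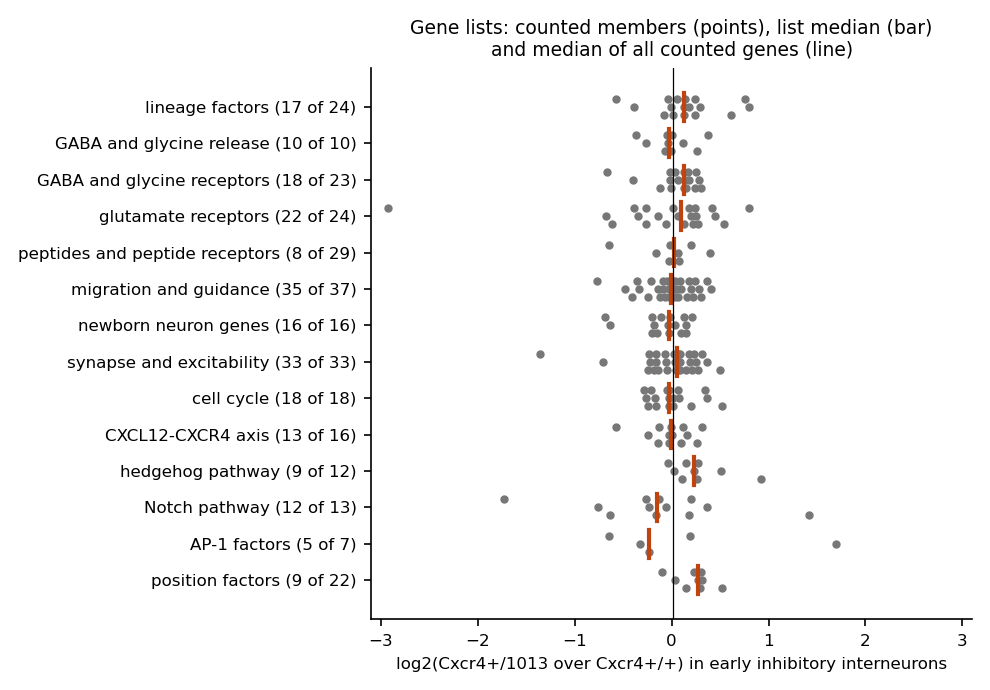
Points are the counted genes of 14 lists at their log2 ratio, Cxcr4+/1013 over Cxcr4+/+, in the interneurons, with a bar at the median of each list and a vertical line at the median of all counted genes, 0.01. The medians lie between -0.23 and 0.27, and Jund, in the AP-1 list, is the farthest point to the right, at 1.70.

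The receptor that the mutation alters was scarce in these cells. Cxcr4 was at 6.99 CPM in mutant and 6.95 CPM in control interneurons, against 2.67 and 3.57 CPM in the Purkinje set. The log2 ratio over that set was 1.39 (0.78 to 2.01) in mutant and 0.96 (0.31 to 1.59) in control. A Cxcr4 UMI was seen in 4.98% and 5.59% of interneurons, against 6.61% and 6.67% of the Purkinje set. That set is deeper, so these shares do not compare the levels, and the part of background transcripts was not tested. In all other barcodes Cxcr4 was at 25.2 and 28.02 CPM. Among the interneuron groups it was at 11.0 CPM over both libraries in the Id2 Wscd1 group and at 3.1 CPM or less in the other 4. Its ligand Cxcl12 was at 15.7 and 23.3 CPM, from 2.87% of mutant and 5.31% of control cells, and without the barcodes marked as doublets at 10.4 CPM in mutant and 1.91 CPM in control interneurons, from 65 and 7 UMIs. The scavenger receptor Ackr3 was at 1.19 and 2.45 CPM. Of 13 counted genes of the axis out of 16, 6 were above and 7 below a ratio of 1 and none differed by 1.5-fold, while without the marked barcodes Cxcl12 did. That Cxcl12 ratio rests on few UMIs. Fibroblast markers also differed among unmarked cells, at 369.0 CPM in mutant and 6.23 CPM in control cells of the Igfbp5 Cdh23 group. Whether the same few cells carried Cxcl12 was not tested. Grk3, a kinase that phosphorylates activated receptors, was at 107 and 88.9 CPM, and Arrb2, an arrestin, at 17.3 and 17.6 CPM.

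Cell cycle genes gave no common direction. The counts at 1.5-fold in this paragraph stand beside 2.97% of all genes higher and 3.51% lower. Without the barcodes marked as doublets these shares were 3.40% and 2.94%. Of 18 counted, 8 were above and 10 below a ratio of 1 and none differed by 1.5-fold, with Mki67 at 101.1 CPM in mutant and 78.7 CPM in control interneurons and Pcna, the replication clamp, at 104 and 121 CPM. Of 9 counted hedgehog genes out of 12, 8 were above a ratio of 1, and Gas1, a co-receptor, was at 22.8 and 12.1 CPM, beside a log2 ratio of 0.82 in all other barcodes. Of 12 counted Notch genes out of 13, 4 were above and 8 below a ratio of 1, and at 1.5-fold Dll4 was higher and Notch1, Notch2 and Hes5 were lower. Among unmarked interneurons 6 of 9 counted were above and 3 below, with a median log2 ratio of 0.10 against -0.15, Dll4 was still higher and none was lower. Hes5, a Notch target of astroglia and progenitors, was at 3.56 CPM in mutant and 11.9 CPM in control interneurons, with 1 control cell giving 25.9% of its UMIs, and Dll4, a Notch ligand, at 7.65 and 2.86 CPM. Among 5 counted AP-1 genes, Jund stood alone above 1.5-fold, Fosb was below it at 12.7 and 19.8 CPM, though at a log2 ratio of -0.30 among unmarked cells, and Fos was at 177.2 and 155.2 CPM. Of 82 counted cytosolic ribosomal protein genes, 69 were below a ratio of 1 with a median log2 ratio of -0.19, against -0.22 in all other barcodes, and none differed by 1.5-fold. Among peptides and their receptors 8 of 29 were counted, with Pnoc, which encodes nociceptin, at 78.0 and 74.0 CPM, Galr1 at 25.1 and 25.3 CPM, and the somatostatin receptor Sstr2 at 14.0 CPM in mutant and 21.9 CPM in control interneurons, the single one past 1.5-fold, where none was without the barcodes marked as doublets.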

How the data were processed

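Single-cell libraries from P1 lobules III-IV, 1 per genotype, were made into matrices by Cell Ranger 7.2 on mm10 after bcl2fastq 2.20.0.4222, per the submitters' processing notes. The deposited matrices hold raw counts, that is whole numbers of UMIs per gene and barcode over 32285 genes, with no normalisation and no barcode under 500 UMIs. The labels do not say whether intronic reads were counted. The members and gene lists were chosen with earlier results of these data known.

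The limits of 500 genes and 10% mitochondrial UMIs left 8194 barcodes in the mutant and 8353 in the control library, and the rule was applied to their raw counts. Likely doublets were marked with Scrublet in scanpy 1.11.5 at 0.8% per 1000 deposited barcodes and stayed in unless stated. Counts were summed per library and scaled to CPM. Shares carry exact Clopper-Pearson intervals, summed counts Poisson intervals and ratios exact conditional binomial intervals, all at 95% and for counting error only. A gene was counted with 50 UMIs over both libraries and called at 1.5-fold. A count of 0 is given as a limit of 3 counts over the library. Cells were not used as replicates, and no p-value was computed.

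Interneurons were clustered with Leiden (resolution 0.3, 20 components, 15 neighbours, 2000 variable genes). Named genes were the 12 higher and 12 lower with the ratio interval farthest from 1. Against Lhx5-free barcodes they were the 12 highest and 12 lowest, and against all others the 20 highest of genes with at least 50 CPM, by the smaller ratio of both libraries. Sex-linked, mitochondrial, ribosomal protein, haemoglobin and predicted genes and genes with over 25% of UMIs from 1 cell were left out. Between genotypes that limit held in the library where a gene was higher and not in the other. Results for a few single genes are not reported here, though counts over lists include them. Genes of the lists and leading genes of groups were also named. A female cell held Xist and no Y-linked UMI, and a male cell the reverse. Scaling factors of edgeR 4.0.16 (TMM) and DESeq2 1.42.0 served as alternatives. The ratios, calls and intervals were tested on counts simulated as independent Poisson draws per gene. Such draws leave out the clustering of UMIs within cells, so they cannot test the intervals for it.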

Additional observations from a re-analysis of the deposited data

Results flagged for a closer look

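Among the 11 genes named as lower in mutant interneurons, 6 stood on opposite sides of 1 in female and male cells, and this difference between the sexes was not tested. The log2 ratio, mutant over control, was -3.44 in female and 1.05 in male cells for Snhg11, -4.91 and 1.34 for Nwd2, and -2.45 and 1.19 for Caly. It was -2.33 and 0.84 for Cntn5, a contactin, -2.85 and 0.34 for Col4a2, a collagen of vessels, and -2.62 and 0.33 for Eomes, a factor of unipolar brush cells. Counts in male cells were low, at 83 mutant and 18 control UMIs for Snhg11, 17 and 3 for Nwd2, 46 and 9 for Caly, 80 and 20 for Cntn5, 17 and 6 for Col4a2, and 28 and 10 for Eomes. Nwd2 was seen in 10 mutant and 17 control interneurons and Col4a2 in 7 and 25.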

How the results depend on the processing

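No paired analysis was possible because each genotype gave 1 library, and for the same reason no library could be left out. The share ratio of 1.49 lay between 1.41 and 1.66 without marked doublets, under stricter barcode limits, with 2 UMIs of each rule gene, without Calb1 and Car8 and in male cells. It moved to 1.23 in female cells, 1.28 after thinning, 1.29 among Gad1 and Gad2 barcodes and, in an alternative chosen after seeing the data, 1.14 among unmarked Pax2 barcodes. The 346 higher and 410 lower genes became 664 and 929 with at least 20 UMIs, 122 and 66 with at least 200, and 1698 and 3229 with no filter, and 261 were lower in male cells. TMM factors gave 367 and 387, and leaving out the top barcode of each gene, also chosen after seeing the data, 373 and 274. Of the values for functional lists and single genes under alternatives, 344 stayed, 79 moved and 8 reversed. Marker lists were recomputed only without marked doublets, where the fibroblast median was 2.57 against -0.70, values that rest on few cells. With 2 UMIs of each rule gene Ptf1a gave a log2 ratio of -0.072. Without Calb1 and Car8 Cntn5 gave 0.21. In male cells Snhg11 gave 1.05, Nwd2 1.34, Caly 1.19, Cntn5 0.84, Col4a2 0.34 and Eomes 0.33. The cause was not tested. At these depths genes under 50 UMIs carry wide intervals.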
